A study of Mus musculus with 6 samples.

Results

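The set described here holds 40 genes of the antioxidant programme controlled by the transcription factor NRF2 (gene Nfe2l2) and of glutathione metabolism. Its members were chosen by name, with earlier results of these data known, and all 40 have a row among the 46095 rows of the count table. A filter on low counts left 39 of them for testing, among 15367 genes in all. Slc7a11 was the member that did not pass. RNA was sequenced from 6 kidney samples of mice, 3 labelled DHT and 3 labelled control. DHT is dihydrotestosterone, a potent androgen that is used in mice to model polycystic ovary syndrome (PCOS), and the study asked about kidney injury in that model. Both groups carry the strain label PCOS mouse on a C57BL/6 background, and the treatment label alone sets the groups apart. The labels used here give no age, dose, route or duration. They also do not say whether each of the 3 samples of a group is its own animal; p-values therefore reflect the spread among these samples, which may be technical. A difference called log2 below is the log2 fold change of DHT over control, with its standard error (SE) after the ± sign.

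NRF2 is held in the cytoplasm and marked for breakdown by KEAP1 until oxidants or electrophiles modify KEAP1. NRF2 then enters the nucleus and, with a small MAF protein, binds antioxidant response elements near genes for detoxification, glutathione synthesis, the thioredoxin system and NADPH supply. Glutathione is a tripeptide of glutamate, cysteine and glycine. Peroxidases use it to reduce peroxides, and glutathione transferases attach it to reactive compounds. The proximal tubule of the kidney handles much of the body's circulating glutathione and secretes the peroxidase GPX3 into plasma.

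Libraries held 15054763 to 19331942 counts, and the 40 genes took 3.03% to 4.80% of them. Proximal tubule markers, the defining markers of the labelled tissue, were all present (10 of 10 tested, 0 called) and summed to 11833 to 17945 CPM, which are counts scaled to one common library size with a correction for library composition. DHT replicate 2 stood apart from the other DHT libraries in macrophage and monocyte markers (10 of 10 tested, 0 called), whose summed level was 116, 415 and 261 CPM in DHT replicates 1, 2 and 3 and 117, 171 and 249 CPM in control replicates 1, 2 and 3. Endothelial markers (8 of 8 tested, 1 called higher, Ehd3) summed to 485, 836 and 482 CPM and 485, 508 and 610.2 CPM in the same order. Markers of the straight segment of the proximal tubule (5 of 5 tested, 1 called higher, Slc7a13) summed to 3480.4, 1153 and 3373 CPM and 828, 1704 and 1481 CPM. By this sum DHT replicate 2 lay within the control range and DHT replicates 1 and 3 above it, mainly through Atp11a and Slc7a13. Slc22a7 ran the other way (39.4, 13.3 and 74.3 CPM and 41.3, 251 and 264 CPM), and Slc5a1 and Slc3a1 overlapped between groups. The median log2 of the 5 markers over their control means was -0.02, 0.002 and 0.20 and -1.08, 0.43 and 0.14. By that median the groups overlapped and DHT replicate 2 did not stand apart. Red blood cell markers (4 of 6 tested, 0 called) summed to 3.08, 70.7 and 4.57 CPM and 22.5, 37.6 and 7.82 CPM in the same order. Podocyte markers (5 of 5 tested, 0 called) summed to 811 CPM in DHT replicate 2 against 543 to 704 CPM elsewhere. Lymphocyte markers (5 of 8 tested, 0 called) summed to 49.2 CPM there against 16.1 to 21.8 CPM. Of the macrophage markers, Csf1r alone was not highest in DHT replicate 2 (60.7 CPM, against 71.6 and 90.7 CPM in control replicates 2 and 3). Control replicate 3 stood apart in summed principal cell markers (5 of 5 tested, 0 called), at 721 CPM against 295 to 417 CPM in the other libraries. Aqp2, Aqp3, Avpr2 and Fxyd4 were highest in that library, while Scnn1g was at 86.0 CPM against 99.3 CPM in DHT replicate 1. Its summed loop of Henle markers (5 of 5 tested, 0 called) were at 14428 CPM against 6221 to 9181 CPM. Umod, Slc12a1, Kcnj1 and Egf were highest there, while Cldn16 was at 11.3 CPM against 10.9 to 13.3 CPM in the other libraries. Control replicate 3 also held 15.3 CPM of adrenal cortex markers (1 of 5 tested, 0 called) against 0.475 to 3.11 CPM elsewhere. Cyp11b1 and Cyp21a1 were at 0 counts in all libraries. Its sum came mainly from Cyp11a1 and Hsd3b1 (6.33 and 6.48 CPM), while Star, the tested marker, was at 2.47 CPM against 0.475 to 2.49 CPM elsewhere. Fat cell markers (0 of 5 tested) summed to 19.2 CPM in control replicate 2 against 0 to 1.78 CPM elsewhere. In bulk RNA, fewer cells of a type and less RNA per cell cannot be told apart.

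Of the 39 members tested, 3 were higher in DHT and 0 were lower: Nqo1, a quinone reductase, Gstt2, a theta-class glutathione transferase, and Txn1, thioredoxin (edgeR's quasi-likelihood test, Benjamini-Hochberg adjusted p of 0.05 over all genes). That is 7.69% of the members called higher, where 1.38% of all genes tested were called higher, 1.46% lower and 2.84% either way. The members were chosen with earlier results of these data known. The shares given here therefore describe the list and are not an independent test of it. Unadjusted p was below 0.05 for 14 of the 39 (35.9%, against 23.9% of all genes). The 3 DHT libraries lay above all 3 controls for 14 members (35.9%, against 14.8% of all genes) and below them for 1, Gsta4 (2.56%, against 15% of all genes). The fold change was positive for 32 members and negative for 7, with a median log2 fold change of 0.23 against 0.00 over all genes. With total counts in place of composition scaling the median of all genes moved by -0.10, 25 members were positive, and 32 lay above that median, as many as with composition scaling.

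The number of calls changed with single libraries, among the members and over all genes. With 1 library left out, calls over all genes ran from 0 to 745 higher and from 0 to 479 lower. Without DHT replicate 2, 8 members were higher and 1 lower, where 4.72% and 3.04% of all genes were. Without control replicate 1, Txn1 was the single call. Leaving out any other library (control replicates 2 and 3, DHT replicates 1 and 3) left 0 members called by edgeR. DESeq2, another count model, called 10 members higher and 1 lower, against 5.56% and 5.08% of all genes.

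**Figure D1:**
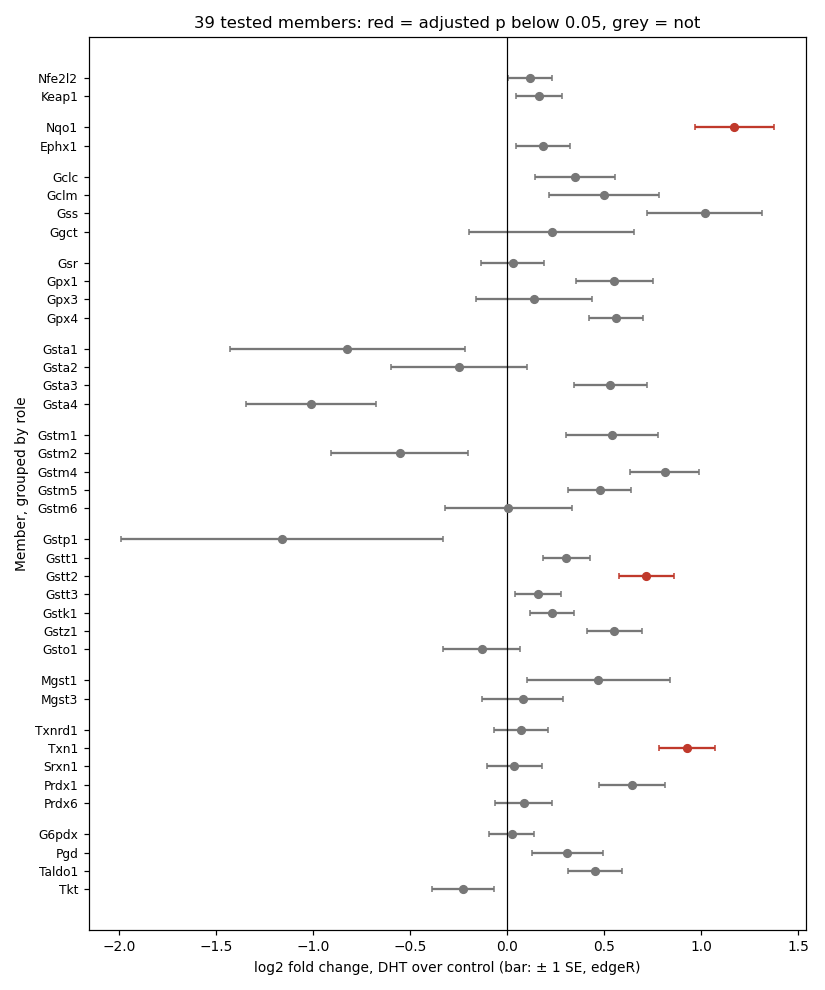
The log2 fold change of DHT over control (horizontal axis) is drawn for the 39 tested members in role order, with bars of 1 standard error from edgeR. Nqo1, Gstt2 and Txn1, in red, passed the adjusted p of 0.05, and 32 of the 39 points lie right of 0.

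Nqo1 reduces quinones in a single step that avoids radical intermediates, and it is the classical NRF2 target (chromosome 8, 107388225 to 107403206, minus strand, GRCm38). Its level was 132, 169 and 109 CPM in DHT replicates 1, 2 and 3 and 58.04, 74.9 and 49.1 CPM in control replicates 1, 2 and 3. The groups did not overlap, and DHT replicate 2 was the highest library. Nqo1 rose from 60.7 ± 13.1 to 137 ± 30.01 CPM (mean ± SD over 3 libraries; log2 difference 1.17 ± 0.20 by edgeR, adjusted p = 0.0345). The adjusted p of Nqo1 was 0.0214 without DHT replicate 2 and 0.0616 to 0.1 without each of the other 5 libraries, and 0.0506 with total counts, while the log2 fold change stayed between 0.98 and 1.35.

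Txn1, the small protein that reduces disulfides and feeds peroxiredoxins (chromosome 4, 57943373 to 57956411, minus strand), was at 303, 303 and 277 CPM in DHT replicates 1, 2 and 3. The controls were at 129, 168 and 167 CPM, all below the lowest DHT library. Txn1 rose by 0.93 ± 0.14 (log2, SE) to 294 ± 15.02 from 155 ± 22.2 CPM, with the smallest adjusted p of the members (edgeR adjusted p = 0.0251). It kept its call when DHT replicate 2 (0.016) or control replicate 1 (0.04) was left out. Leaving out control replicates 2 and 3 in turn gave Txn1 an adjusted p of 0.102 and 0.0541, and leaving out DHT replicates 1 and 3 in turn gave 0.0858 and 0.103.

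Gstt2, which conjugates glutathione to small halogenated and sulfate compounds (chromosome 10, 75831114 to 75837424, minus strand), was at 195, 206 and 221 CPM under DHT and 125, 145 and 108 CPM in control replicates 1, 2 and 3. Again no DHT library reached down to the controls. It rose from 126 ± 18.7 to 207 ± 13.2 CPM (log2 difference 0.72 ± 0.14 by edgeR, adjusted p = 0.0398). The call of Gstt2 held without DHT replicate 2 (0.0326) and was lost without each of the other 5 libraries (adjusted p 0.0761 to 0.141). Summed with its neighbours Gstt1 and Gstt3, the log2 fold change was 0.45 ± 0.14 and the adjusted p 0.106.

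**Figure D2:**
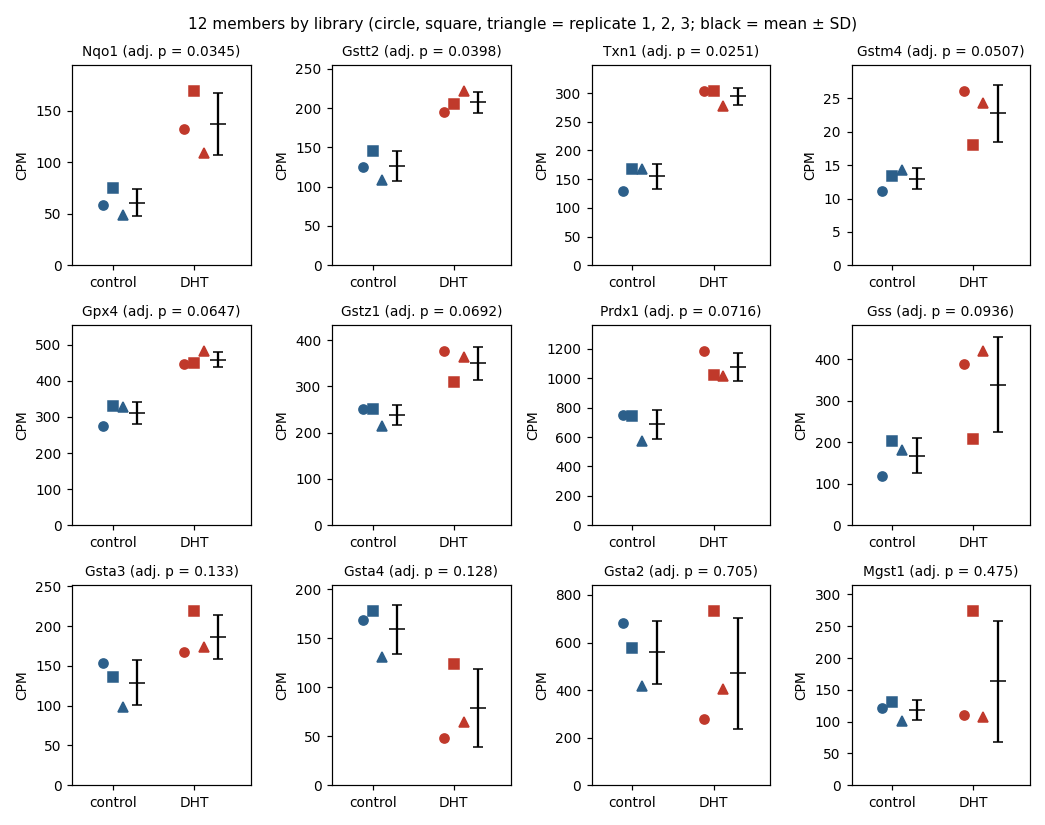
Each panel gives 1 member's CPM (vertical axis, from 0) in the 3 control (blue) and 3 DHT (red) libraries, with mean ± SD in black. Nqo1, Gstt2 and Txn1 part the groups with adjusted p below 0.05, Gsta4 is the member with all DHT libraries below the controls, and Mgst1 and Gsta2 have DHT replicate 2 far above DHT replicates 1 and 3.

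The sequences just before the starts of Nqo1 and Txn1 are shown because these 2 genes rose and had an entry among the RefSeq promoters (build GRCm38.p6). Each run is the 250 bases before the gene start, read 5′ to 3′ on the gene's strand, with any match to the core antioxidant response element TGACNNNGC in capitals. Neither run holds a match. Sequence farther than 250 bases before the start was not searched, so an element there would be missed.
Nqo1 (chr8:107403206-107403455, minus strand): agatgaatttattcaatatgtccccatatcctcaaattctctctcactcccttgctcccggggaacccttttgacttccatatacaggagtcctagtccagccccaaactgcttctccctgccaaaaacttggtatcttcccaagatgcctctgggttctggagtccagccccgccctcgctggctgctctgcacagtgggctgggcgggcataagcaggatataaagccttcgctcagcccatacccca
Txn1 (chr4:57956412-57956661, minus strand): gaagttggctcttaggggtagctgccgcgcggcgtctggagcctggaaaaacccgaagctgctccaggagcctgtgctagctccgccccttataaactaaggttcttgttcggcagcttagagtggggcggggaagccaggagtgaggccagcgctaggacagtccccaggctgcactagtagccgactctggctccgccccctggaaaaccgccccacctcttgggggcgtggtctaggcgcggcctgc

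The motif TGACNNNGC was searched on both strands in the 300 bases from 250 before to 50 after each gene start. Of 35 members with a RefSeq entry, 11 held it (31.4%), as did 14% of all 27025 genes in that table. Of 78 other listed genes of the pathway, described below, 13 held it (16.7%). A gene with several starts was counted if any of its windows held the motif. No entry was matched for Gclc, Gsr, Gsta4, Gstt2 or Prdx6. The 12 sites in the 11 members are printed on the strand that reads as the motif, with the motif in capitals and 10 bases on either side, so that the variable middle letters can be compared.
Nfe2l2 (chr2:75704885-75704913, minus strand): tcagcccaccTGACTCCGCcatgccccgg
Gclm (chr3:122245413-122245441, minus strand): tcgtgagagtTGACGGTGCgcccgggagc
Ggct, upstream site (chr6:54993023-54993051, plus strand): tcccgcccacTGACGTCGCttttctattg
Ggct, site past the start (chr6:54992844-54992872, minus strand): tctctgtgctTGACGCTGCtggcgtggat
Gsta3 (chr1:21240454-21240482, plus strand): aactcaggcaTGACATTGCatttttcttc
Gstm5 (chr3:107895802-107895830, plus strand): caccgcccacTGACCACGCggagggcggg
Mgst1 (chr6:138140461-138140489, minus strand): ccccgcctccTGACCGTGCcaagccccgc
Txnrd1 (chr10:82859104-82859132, minus strand): cgtgtcagaaTGACAAAGCaaaaatccag
Srxn1 (chr2:152105542-152105570, minus strand): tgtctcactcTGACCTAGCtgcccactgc
Prdx1 (chr4:116685456-116685484, minus strand): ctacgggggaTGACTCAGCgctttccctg
G6pdx (chrX:74428919-74428947, plus strand): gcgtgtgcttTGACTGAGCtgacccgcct
Pgd (chr4:149166061-149166089, minus strand): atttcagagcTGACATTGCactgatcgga
Prdx1 alone among these members carries the form TGACTCAGC, which 0.503% of all genes in the table hold. A match describes letters in a window and not a bound site. None of the 11 genes with a site was called in the main fit, and their log2 fold changes ran from 0.02 for G6pdx to 0.64 for Prdx1. Only 3 of the 39 members tested were called there, so 0 of 11 does not set these genes apart. In alternative fits Prdx1 (adjusted p = 0.00135 with DESeq2) and Gstm5 (adjusted p = 0.0354 by edgeR without DHT replicate 2) were called higher.

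Neither regulator was called. Nfe2l2 was at 152, 167 and 144 CPM under DHT and 144, 139.7 and 143 CPM in control, so that the lowest DHT library lay below the highest control (log2 difference 0.12 ± 0.11 by edgeR, adjusted p = 0.559). Keap1, its inhibitor, was at 48.4, 43.1 and 49.7 CPM under DHT and 39.6, 39.3 and 47.00 CPM in control, also overlapping (0.16 ± 0.12, adjusted p = 0.436). Ephx1, a microsomal epoxide hydrolase, was at 66.02 ± 4.49 and 58.1 ± 9.42 CPM (adjusted p = 0.444).

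Among genes of glutathione synthesis and supply, 0 of 4 tested passed. Gss, glutathione synthetase, which adds glycine in the last step (chromosome 2, 155563181 to 155592810, minus strand), had the largest fold change of this group. Its level was 389, 208 and 419 CPM in DHT replicates 1, 2 and 3 and 119.6, 202 and 179.9 CPM in control replicates 1, 2 and 3. DHT replicate 2 stood just above control replicate 2, while DHT replicates 1 and 3 were far above (log2 difference 1.02 ± 0.29 by edgeR, adjusted p = 0.0936). Without DHT replicate 2 Gss was called, at a log2 fold change of 1.26 (adjusted p = 0.0153). Gss shares exonic bases with Acss2 and 2 antisense genes on the opposite strand, 5.44% to 6.68% of its exon length each, and as the strand setting is not given those reads cannot be told apart.

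Glutamate-cysteine ligase, the rate-limiting enzyme, has a catalytic subunit, Gclc, and a modifier subunit, Gclm. Gclc was at 389, 248 and 334 CPM under DHT and 229.8, 311 and 221 CPM in control (0.35 ± 0.20, adjusted p = 0.329). Gclm was at 265, 182 and 271 CPM under DHT and 116, 244 and 149 CPM in control (0.50 ± 0.28, adjusted p = 0.32). For both subunits the groups overlapped, and DHT replicate 2 was the lowest DHT library and lay below control replicate 2. Ggct, which breaks down gamma-glutamyl peptides, was also lowest in DHT replicate 2 within DHT (55.2, 21.9 and 54.6 CPM) and a control range of 23.0 to 52.3 CPM. Slc7a11, the cystine importer and a known NRF2 target, was nearly absent. It had 0, 46 and 0 counts in DHT replicates 1, 2 and 3 and 0, 2 and 1 in the controls. Thus 46 of its 49 counts came from DHT replicate 2. That library had the highest summed macrophage, endothelial, podocyte, lymphocyte and red blood cell markers. The part of those cells in that count was not tested.

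Glutathione peroxidases Gpx3 and Gpx1 were the most abundant members per length. Gpx3, the secreted plasma peroxidase made by the proximal tubule, was at 28041, 25513 and 43627 CPM under DHT and 34171, 32698 and 21368 CPM in control, and it alone held 2.34% to 3.95% of all counts. The groups overlapped, and the highest and lowest libraries were DHT replicate 3 and control replicate 3 (0.14 ± 0.30, adjusted p = 0.805). Gpx4, which reduces lipid peroxides in membranes and guards against ferroptosis, was at 446, 449 and 482 CPM under DHT and 275, 331 and 327 CPM in control. These groups did not overlap (0.56 ± 0.14 by edgeR, adjusted p = 0.0647), and 73.7% of the Gpx4 transcript is 99.7% identical to its copy Gpx4-ps2. Gpx1, the cytosolic peroxidase, was at 1899, 1999.8 and 2178 CPM under DHT and 1649.5, 1422 and 1074 CPM in control, again with every DHT library higher (0.55 ± 0.20, adjusted p = 0.14). Gsr, the reductase that regenerates glutathione with NADPH, was at 171 ± 5.88 CPM under DHT and 168 ± 35.5 CPM in control (0.03 ± 0.16).

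The 4 alpha-class transferases, which also reduce lipid peroxides, differed in direction among themselves, and 0 were called. Gsta4, specialised for the lipid peroxidation product 4-hydroxynonenal (chromosome 9, 78182774 to 78209349, plus strand), was at 48.5, 124 and 64.4 CPM in DHT replicates 1, 2 and 3. The controls were at 168, 177 and 131 CPM, so that DHT replicates 1 and 3 were well below them and DHT replicate 2 only just (log2 difference -1.01 ± 0.33 by edgeR, adjusted p = 0.128). Without DHT replicate 2 the log2 fold change of Gsta4 was -1.50 (adjusted p = 0.00431), the single member called lower there. Gsta2 was at 279, 731 and 403 CPM under DHT and 682, 578 and 419 CPM in control, with DHT replicate 2 the highest and DHT replicate 1 the lowest of all 6 libraries (-0.25 ± 0.35, adjusted p = 0.705). Gsta1 had 5, 29 and 8 counts in DHT and 30, 26 and 29 in control (-0.82 ± 0.61, adjusted p = 0.437). Without DHT replicate 2, the DHT library at the control level, its log2 fold change was -1.95 and the adjusted p 0.0506. The transcripts of Gsta1 and Gsta2 are 97.2% identical, and both resemble Gm10639 and Gm3776 over nearly their whole length, so their levels are uncertain; Gsta1 and Gsta2 together gave a log2 fold change of -0.25 ± 0.35. Gsta3 was the alpha-class member with every DHT library higher, at 168, 219 and 173 CPM against 153, 136 and 97.9 CPM, and did not pass (0.53 ± 0.19, adjusted p = 0.133).

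Mu-class transferases, which conjugate epoxides and quinones, held 0 calls among 5 tested. Gstm4 came nearest (chromosome 3, 108040408 to 108044894, minus strand): 26.1, 17.97 and 24.3 CPM under DHT and 11.2, 13.4 and 14.3 CPM in control replicates 1, 2 and 3, with no overlap (log2 difference 0.81 ± 0.18 by edgeR, adjusted p = 0.0507). It was called without DHT replicate 2 (0.0153). Gstm1, the most abundant mu-class member per length, was at 530.2, 479.9 and 666 CPM under DHT and 258, 427 and 468 CPM in control, where DHT replicate 2 stood just above control replicate 3 (0.54 ± 0.24, adjusted p = 0.21). Gstm5 was at 127, 98.4 and 145 CPM and 88.2, 98.4 and 80.1 CPM (0.48 ± 0.16, adjusted p = 0.123), and DHT replicate 2 was level with control replicate 2. It was called without that DHT library (0.0354). Gstm5 shares 13.9% of its exon length with an antisense gene. Gstm2 showed a single high library, control replicate 3, at 108 CPM against 42.3 to 47.6 CPM in the other 5. Without that library its log2 fold change went from -0.55 to 0.01. Gstm6 stayed at 1.83 to 3.81 CPM. Gstm1 and Gstm2 are 86.9% identical over 50.3% of the Gstm1 transcript. The 5 genes summed gave a log2 fold change of 0.44 ± 0.22 (adjusted p = 0.257).

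Gstp1, the pi-class transferase, followed Gstm2 in its high library. It was at 6.91, 2.51 and 8.13 CPM under DHT and 5.23, 4.72 and 29.1 CPM in control, and its log2 fold change of -1.16 became 0.23 without control replicate 3 (adjusted p = 0.439 and 0.82). That library also had the highest summed principal cell, loop of Henle and adrenal cortex markers, as given above, and their part in the levels of Gstm2 and Gstp1 was not tested. Gstp2, 94.2% identical to Gstp1, had 1 count in DHT and 4 in control.

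Gstz1, which converts maleylacetoacetate in tyrosine breakdown (chromosome 12, 87147165 to 87164723, plus strand), was at 376, 309.6 and 364 CPM under DHT and 250.3, 252 and 214 CPM in control. All DHT libraries were higher, and the adjusted p missed the threshold (0.55 ± 0.14 by edgeR, adjusted p = 0.0692); it was 0.0353 without DHT replicate 2. Pomt2 overlaps 9.14% of the Gstz1 exons on the opposite strand. Gstt1 and Gstk1, the latter a mitochondrial and peroxisomal enzyme, also had every DHT library higher, by 0.31 ± 0.12 and 0.23 ± 0.11 (edgeR adjusted p = 0.177 and 0.257). Gstt1 was at 149, 170 and 167 CPM under DHT and 143, 130 and 119 CPM in control. Gstt3 and Gsto1, which also reduces dehydroascorbate, overlapped between groups (0.16 ± 0.12 and -0.13 ± 0.20).

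Of the microsomal transferases, Mgst1 was at 110.1, 273 and 107 CPM in DHT replicates 1, 2 and 3 and 121, 131 and 101 CPM in control. DHT replicate 2 was far above every other library, and the sign of the fold change rested on it: 0.47 ± 0.37 with it and -0.13 without it (edgeR adjusted p = 0.475 and 0.595). The same library had the highest summed macrophage, endothelial, podocyte, lymphocyte and red blood cell markers, and the part of these cells in the Mgst1 level was not tested. Mgst3 was at 85.9, 140.3 and 144 CPM under DHT and 98.7, 118 and 134 CPM in control, with the groups mixed (0.08 ± 0.21).

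In the thioredoxin system, Txn1 was the call among 5 tested; all 5 fold changes were positive with composition scaling and 2 with total counts. Prdx1, the cytosolic peroxiredoxin that thioredoxin recharges (chromosome 4, 116685544 to 116700822, plus strand), was at 1183, 1025 and 1019 CPM under DHT and 749, 740.2 and 575 CPM in control. Every DHT library was above the controls (0.64 ± 0.17 by edgeR, adjusted p = 0.0716). Txnrd1, the reductase that feeds thioredoxin with electrons from NADPH, was at 193 ± 14.2 CPM and 183 ± 24.02 CPM (0.07 ± 0.14, adjusted p = 0.781). Srxn1, sulfiredoxin, which repairs over-oxidised peroxiredoxins, was at 88.2 ± 11.98 and 85.99 ± 10.1 CPM (0.04 ± 0.14). Prdx6, a peroxiredoxin that uses glutathione, was at 209 ± 18.8 and 197 ± 27.9 CPM (0.08 ± 0.15). For all 3 genes the groups overlapped.

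The pentose phosphate genes, which supply NADPH, held 0 calls among 4 tested. Taldo1, transaldolase of the non-oxidative branch (chromosome 7, 141392199 to 141402968, plus strand), was at 249, 209.9 and 276 CPM under DHT and 187, 172 and 177 CPM in control, without overlap (0.45 ± 0.14 by edgeR, adjusted p = 0.1; 0.0411 without DHT replicate 2). Tkt, transketolase of the same branch, had a fold change of the other sign (-0.23 ± 0.16, adjusted p = 0.41), at 176, 239.8 and 229 CPM under DHT and 278, 253 and 224 CPM in control. G6pdx and Pgd, the NADPH-forming dehydrogenases, had log2 fold changes of 0.02 ± 0.11 and 0.31 ± 0.18 and overlapping groups.

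**Figure D3:**
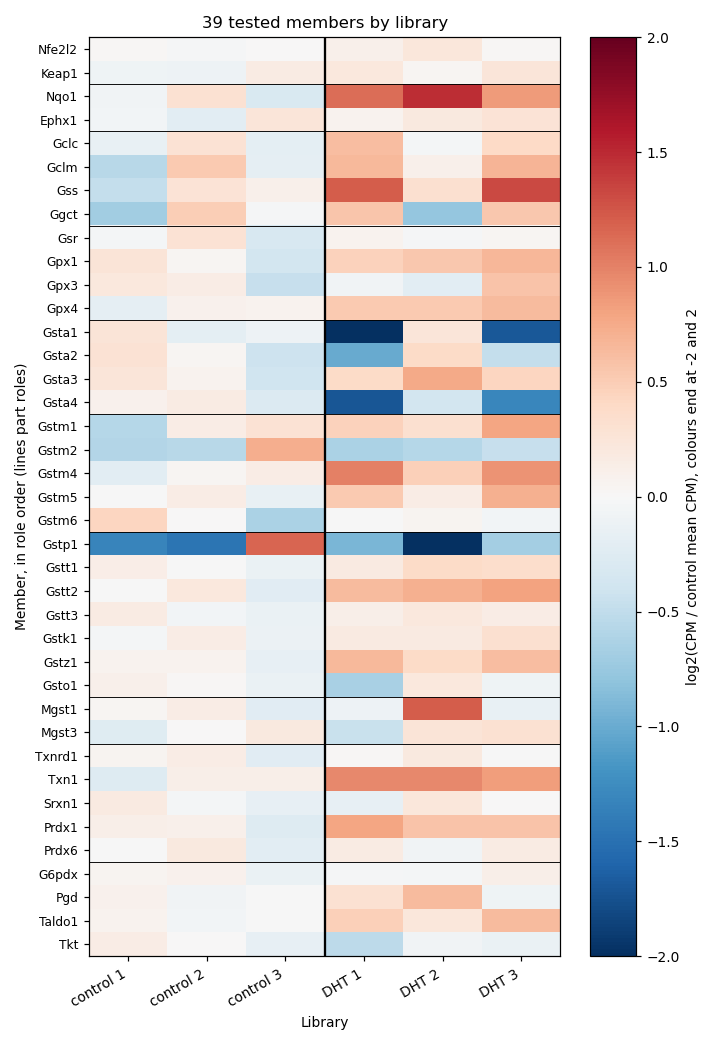
Colours give log2 of each library's CPM over the control mean for the 39 tested members, red above and blue below, with colours ending at 2 in either direction. Nqo1 and Txn1 are red in all DHT libraries, Gss, Gsta1 and Gsta4 are strongest in DHT replicates 1 and 3, Mgst1 stands out in DHT replicate 2, and Gstp1 and Gstm2 stand out in control replicate 3.

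Within DHT the members did not share 1 order of libraries. DHT replicate 2 was the library nearest the control mean for 16 of 39 members (41.0%), close to its share over all genes (43.0%), and farthest from it for 12 (30.8%, against 26.6%). Of the 39 members, Nqo1, Mgst1, Nfe2l2, Txnrd1, Srxn1, Pgd and Tkt were highest in DHT replicate 2 among the DHT libraries. So were Gsta1, Gsta2, Gsta3, Gsta4, Gsto1, Gstt1, Gstt3 and Gstm6. Lowest there among the DHT libraries were Gss, Gclc, Gclm, Ggct, Gstm1, Gstm4, Gstm5, Gstp1 and Gstz1. Gsr, Gpx3, Keap1, Prdx6, G6pdx and Taldo1 were also lowest in that library. The summed straight segment markers were also lowest in DHT replicate 2 among the DHT libraries, mainly through Atp11a and Slc7a13. Their median log2 over the control means was lowest in DHT replicate 1 (-0.02, against 0.002 in DHT replicate 2). The summed macrophage, endothelial, podocyte, lymphocyte and red blood cell markers were highest in DHT replicate 2, as given above. The part of these cells in the members' levels was not tested.

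Levels can be compared between genes only per length, so CPM was divided by the kilobases (kb) of exon in each gene's model. Gpx3 led at 17867 ± 5411 CPM per kb in DHT and 16223 ± 3864 in control, followed by Gpx1 at 1406 ± 98.1 and 959 ± 201. Gsta2 ranked 3 in both groups (400.3 ± 199 and 476 ± 113 CPM per kb). Next came Gstm1 (379 ± 65.2 and 261 ± 75.6), Prdx1 (353 ± 30.7 and 226 ± 32.3), Gpx4 (266 ± 11.7 and 181 ± 18.02) and Txn1 (280.0 ± 14.3 and 147 ± 21.1). Of the 39 pairs of neighbours in this order, 30 had overlapping libraries in control and 27 in DHT, so most neighbouring ranks are not resolved. The steps from Gpx3 to Gpx1 and from Gpx1 to Gsta2 were resolved in both groups. Nqo1 stood 19th of 40 in control (39.1 ± 8.41 CPM per kb) and 12th in DHT (87.99 ± 19.3), and Gss 28th and 18th. Gsta4 went the other way, from 8th to 16th. Nfe2l2 itself was at 40.6 ± 3.04 and 37.5 ± 0.614 CPM per kb and Keap1 at 10.02 ± 0.742 and 8.94 ± 0.928, and Slc7a11 was last.

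**Figure D4:**
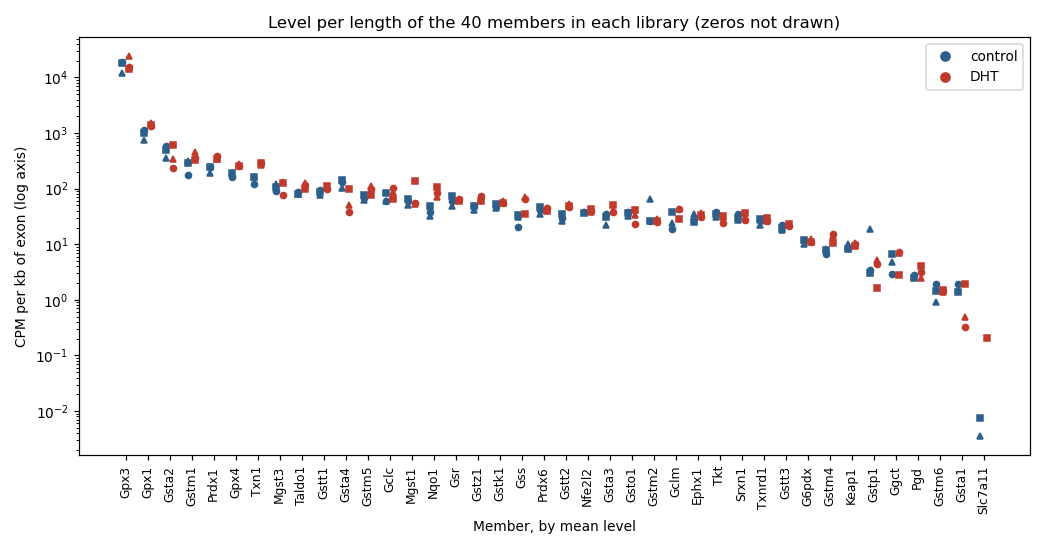
CPM per kb of exon (vertical log axis) is drawn for each of the 40 members in every library, ordered by mean level, control blue and DHT red. Gpx3 lies far above Gpx1 in every library, and Slc7a11 is visible in 3 libraries, since zeros are not drawn.

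**Figure D5:**
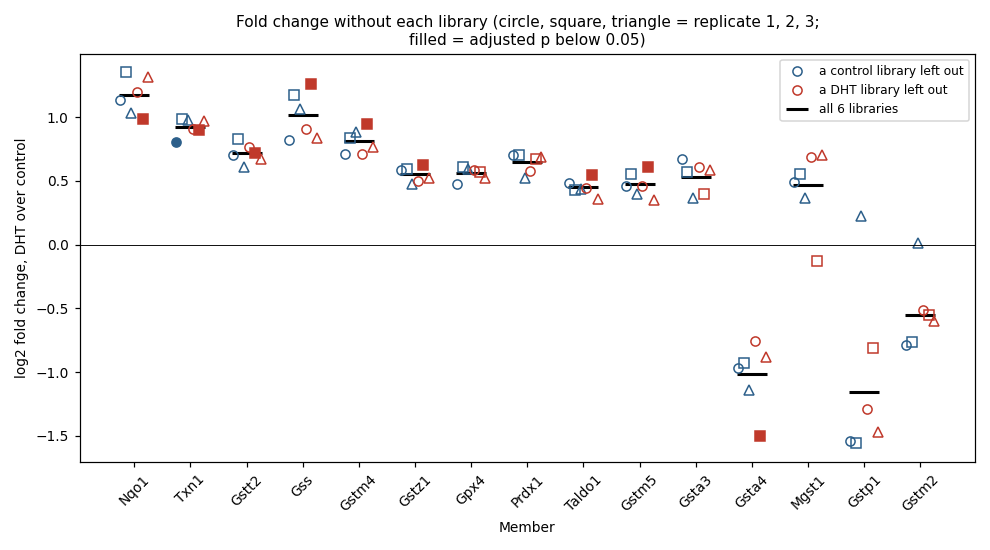
The log2 fold change of DHT over control (vertical axis) is drawn for 15 members with all 6 libraries (black line) and with each library left out in turn (blue for a control, red for a DHT library, filled where the adjusted p was below 0.05). Most filled symbols belong to DHT replicate 2, drawn as red squares, and Gstp1, Gstm2 and Mgst1 cross or reach 0 when 1 library is left out.

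Other genes of the same pathway, 89 listed by function, also with earlier results of these data known, were set beside the members. A row was found for 87, and 76 were tested, of which 2 were higher (2.63%, against 1.38% of all genes) and 0 lower in DHT, both listed as NRF2 targets. Ptgr1, which reduces reactive alkenals and prostaglandins, was at 13.8, 11.8 and 16.97 CPM under DHT and 5.53, 5.60 and 5.44 CPM in control (log2 difference 1.36 ± 0.19 by edgeR, adjusted p = 0.0185). Blvrb, a flavin and biliverdin reductase, was at 15.2, 17.5 and 16.97 CPM and 9.47, 7.11 and 9.55 CPM (0.93 ± 0.17, adjusted p = 0.0376). Neither overlapped between groups. Of the 76, DHT lay wholly above control for 27 (35.5%, against 14.8% of all genes) and wholly below for 3 (3.95%, against 15%). Without DHT replicate 2, 11 were higher and 1 lower (Abcc4, log2 fold change -1.95, adjusted p = 0.0117), where 4.72% and 3.04% of all genes were. Without control replicate 1 the call left was Ptgr1, and without any of the other 4 libraries 0 were called. Calls over all genes also depended on the library left out, as given for the members.

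The 3 genes with every DHT library below the controls, named here after their values were seen, were Cbr1, Mafg and Slc3a2. Cbr1, a carbonyl reductase listed as an NRF2 target, had the largest fold change of the 76 in either direction. It was at 45.4, 154 and 77.7 CPM in DHT replicates 1, 2 and 3 against 169, 442 and 343 CPM (-1.79 ± 0.54 by edgeR, adjusted p = 0.118), and it was called lower by DESeq2 (0.0412). Mafg, a small MAF partner of NRF2, was at 96.1, 105 and 80.5 CPM against 155, 134 and 114 CPM (-0.51 ± 0.15, adjusted p = 0.0967; 0.0425 with DESeq2). Slc3a2, the heavy chain of the cystine importer, was at 139, 214 and 221 CPM against 361, 314 and 248 CPM (-0.68 ± 0.21, adjusted p = 0.105; 0.0276 with DESeq2). Fold changes of the 16 listed NRF2 targets outside the member list were positive for 10 and negative for 6.

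In the sub-list of thioredoxin, peroxiredoxin and other antioxidant enzymes, all 14 tested had a positive log2 fold change (median 0.37), 12 of 14 with total counts (median 0.27), and 0 were called. Msrb1, which repairs oxidised methionine, was at 199, 88.3 and 225 CPM under DHT and 61.7, 67.2 and 53.03 CPM in control (1.49 ± 0.33 by edgeR, adjusted p = 0.0582), and Sod1, the cytosolic superoxide dismutase, had a log2 fold change of 0.56 ± 0.16 (adjusted p = 0.0892). Among 18 tested genes of glutathione breakdown and cysteine supply, 0 were called, and 11 fold changes were positive and 7 negative. Ggt1, the brush border enzyme that starts the breakdown of glutathione in the tubule lumen, was at 1289.8, 836 and 1471 CPM under DHT and 551, 771 and 644 CPM in control (0.87 ± 0.24, adjusted p = 0.0767). Oplah, 5-oxoprolinase, which recovers glutamate, was at 191 ± 18.2 and 123 ± 24.2 CPM (adjusted p = 0.0701). Ggt1 and Oplah had every DHT library higher, and Slc3a2, given above, had every one lower.

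Partners and brakes of NRF2 held 0 calls among 10 tested, with 7 positive and 3 negative fold changes, Mafg among the negative ones. Maff, a small MAF partner, was at 2.07, 4.63 and 3.62 CPM under DHT and 1.54, 1.25 and 1.58 CPM in control (1.24 ± 0.37 by edgeR, adjusted p = 0.0931), and Rbx1, part of the ligase that KEAP1 serves, at 73.2 ± 3.58 and 57.6 ± 2.89 CPM (0.34 ± 0.10, adjusted p = 0.0963). Glutaredoxins Glrx and Glrx3 had log2 fold changes of 0.58 ± 0.14 and 0.34 ± 0.10 (adjusted p = 0.0613 and 0.0933), the smallest p of the 7 tested peroxidases and glutaredoxins outside the member list. Other transferases (4 tested of 11 listed; Ltc4s 0.40 ± 0.23, Ptges -0.20 ± 0.12) and partners in NADPH supply (7 tested of 10; Rbks 1.02 ± 0.30, Pgls 0.31 ± 0.15) held 0 calls.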

How the data were processed

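RNA from 6 mouse kidney samples, 3 DHT and 3 control, was measured by mRNA sequencing. Per the submitters' processing notes, HISAT2 2.0 and mm10 were used. No source used here names the counting tool, its annotation or the strand setting. The deposited values are raw counts per gene symbol, with no normalization. Genes with few counts were removed (filterByExpr, minimum count 10, minimum total 15), and edgeR 4.0.16 in R 4.3.3 was fitted with TMM scaling, a robust quasi-likelihood model and Benjamini-Hochberg adjustment at 0.05 over 15367 genes. SE is the value the F statistic implies. CPM uses library sizes scaled by TMM, and SD is over the 3 libraries of a group. Members and lists were chosen with earlier results of these data known. Members given with every library are those called in any fit and those without overlap at a log2 fold change of 0.5 or more in size. Members with a log2 fold change of 1 or more in size, both regulators, both ligase subunits and the most abundant of each class were added. Values by library of Tkt, Ggct, Gsta1, Gstm2 and Slc7a11 were given outside these rules. Exon lengths and copies came from GENCODE models of GRCm38, and promoters from RefSeq. The fit was also run on counts simulated with its own estimates of spread, and no result of that run is used here. Alternatives used DESeq2 1.42.0, limma 3.58.1, other scalings and filters, a replicate block and each library left out.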

Additional observations from a re-analysis of the deposited data

How the results depend on the processing

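Of 557 alternative values of the members' log2 fold changes, 495 kept direction and call, 16 gained a call, 18 lost one and 28 changed sign. The number of genes called moved most. Over all 15367 genes tested, 212 were higher (1.38%) and 225 lower (1.46%). Total counts gave 132 higher. No filter on low counts gave 418 and 434, among 25414 genes tested. DESeq2 gave 854 and 780 (5.56% and 5.08%), and a threshold of 0.1 gave 767 and 761. For members called higher (3), the values were 5 with no filter, 10 with DESeq2 and 8 at 0.1, and DESeq2 called 1 lower. For related genes called higher (2), they were 9, 16 and 16, with 3 lower in DESeq2 and 1 lower at 0.1. Leaving out 1 library gave 0 to 745 genes higher and 0 to 479 lower, 0 to 8 members higher and 0 to 1 lower, and 0 to 11 related genes higher and 0 to 1 lower. Deviations of same-numbered libraries from their group means had correlations of 0.07, -0.15 and 0.04, and those of unlike number ran from -0.13 to 0.13. With 3 libraries in each group, such correlations cannot decide whether the numbers pair the samples. With the replicate number as a block, 36 genes were higher and 49 lower, 1 member higher (Nqo1), 0 related genes higher and 1 lower (Cbr1, adjusted p 0.0257).

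Signs changed for members that were not called, and the cause was not tested. With total counts the log2 fold change was -0.068 for Gsr, -0.086 for Gstm6, -0.023 for Mgst3, -0.018 for Txnrd1, -0.054 for Srxn1, -0.020 for Prdx6 and -0.081 for G6pdx. Over the 6 fits that leave out 1 library, it ran from -0.030 to 0.55 for Ggct, -0.11 to 0.20 for Gsr, -0.13 to 0.28 for Gpx3, -0.72 to 0.022 for Gsta2, -0.78 to 0.013 for Gstm2, -0.24 to 0.27 for Gstm6 and -1.56 to 0.23 for Gstp1. It ran from -0.35 to 0.071 for Gsto1, -0.13 to 0.70 for Mgst1, -0.045 to 0.29 for Mgst3, -0.034 to 0.15 for Txnrd1, -0.078 to 0.13 for Srxn1, -0.018 to 0.19 for Prdx6 and -0.048 to 0.065 for G6pdx. Control replicate 3 set the end past 0 for Gsr, Gstm2, Gstm6, Gstp1, Txnrd1, Prdx6 and G6pdx. The mu-class genes summed gave 0.44 where Gstm2 alone gave -0.55. Slc7a11 had too few counts for a test. Counts by sub-list under total counts were added after the data were seen.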

Other observations

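Some genes of the same pathway were singled out after their values were seen. In Cbr3 and Abcc4, DHT replicate 2 lay far from the other DHT libraries, and in Gm10639 the groups did not overlap. Cbr3, a carbonyl reductase and NRF2 target, was at 1.44, 13.2 and 2.85 CPM in DHT replicates 1, 2 and 3 and 4.37, 4.15 and 4.40 CPM in the controls. Abcc4, an exporter of conjugates, was at 57.5, 328 and 69.9 CPM in DHT and 307, 269 and 159.8 CPM in control, so that DHT replicate 2 lay above every control while DHT replicates 1 and 3 lay below them all. Gm10639, a close copy of Gsta2, had 91, 468 and 175 counts in DHT and 616, 959 and 850 counts in control, with every DHT library lower (log2 fold change -1.51, edgeR adjusted p = 0.176).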
